A study of Mus musculus with 6 samples.

Results

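The 10 genes described here encode the proteins that neutrophils store in their granules or hold in bulk in the cytosol: S100a8, S100a9, Retnlg, Lcn2, Ltf, Camp, Ngp, Elane, Mpo and Padi4. They were taken by symbol from the 21780 genes of the count table, through the GENCODE vM21 annotation, and each matched 1 row. The study asked how an injection of whole glucan particles (WGP), hollow yeast β-glucan shells that have to be engulfed by a cell to act, changed the myeloid cells of the mouse pancreas. Wild-type C57BL/6 mice, male and female, 6 to 8 weeks old, received either PBS or 1 mg of WGP once into the peritoneum, and 7 days later the cells carrying CD45 (all leukocytes) and CD11b (most myeloid cells) were sorted from the pancreas. Poly-A RNA of these cells was sequenced in 6 libraries, 3 from each group. The study describes each sample as a separate animal of 1 experiment, so p-values measure the spread between animals within it, and the sex behind each library is not given in the sources used here. No other agent or genotype is named for either group.

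Neutrophils fill their granules in a fixed order while they mature in the bone marrow. Myeloperoxidase and elastase are made first, at the promyelocyte stage, and go into azurophil granules, lactoferrin, lipocalin 2, cathelicidin and neutrophilic granule protein follow into specific granules, and gelatinase granules and surface receptors come last. The alarmins S100A8 and S100A9, which pair into calprotectin and bind calcium and zinc, are held free in the cytosol and are also made by inflammatory monocytes, so their transcripts are not proof of a neutrophil. Because messages for the granule proteins are largely switched off before a neutrophil leaves the marrow, tissue neutrophils usually carry little Mpo and Elane RNA.

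Total counts ranged from 35334645 to 43341834 per library, and all 10 genes passed the filter on low counts. Levels are CPM, counts scaled to the depth of each library after TMM normalization, and folds are WGP over PBS. Differences were tested with edgeR's quasi-likelihood test on 14430 genes. A called gene had an adjusted p (Benjamini-Hochberg) no higher than 0.05 and a change of 1 or more on the log2 scale in either direction, and SE stands for the standard error of the log2 fold change. PBS replicate 1 stood apart from the other PBS libraries in several ways that touch these genes. It held 0 counts of the Y-linked genes Ddx3y, Eif2s3y, Kdm5d and Uty, against 8972 and 10063 in PBS replicates 2 and 3 and 0, 0 and 1 in the WGP libraries, so apart from 1 count Y-linked RNA was found in PBS replicates 2 and 3 alone. The B cell markers Ms4a1, Cd79a, Cd79b and Pax5 summed to 2055 CPM in PBS replicate 1, 522 and 299 CPM in PBS replicates 2 and 3, and between 76.5 and 133 CPM in the WGP libraries. The fold changes of the 10 genes and the counts over the neutrophil lists are therefore also given without PBS replicate 1.

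S100a8 and S100a9 sit side by side on mouse chromosome 3, 22.6 kb apart, and Camp, Ngp and Ltf lie along chromosome 9 with 570.1 kb between Camp and Ngp and 596.3 kb between Ngp and Ltf. The bases before the start of all 5 are shown, because the levels of the alarmin pair stood in one order across the 6 libraries and those of Ltf, Camp and Ngp of the specific granules in another. The sequences are RefSeq promoter windows of build GRCm38.p6, ended where GENCODE vM21 begins the gene, and the capitals mark matches on either strand to TTGCNNAA, a form of the motif of C/EBP factors, which drive granule genes during maturation.

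S100a8 (chr3:90668821-90668977, plus strand): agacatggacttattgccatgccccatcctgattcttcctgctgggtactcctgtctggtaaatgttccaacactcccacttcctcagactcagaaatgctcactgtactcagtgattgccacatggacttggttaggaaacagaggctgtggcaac

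S100a9 (chr3:90695722-90695971, minus strand): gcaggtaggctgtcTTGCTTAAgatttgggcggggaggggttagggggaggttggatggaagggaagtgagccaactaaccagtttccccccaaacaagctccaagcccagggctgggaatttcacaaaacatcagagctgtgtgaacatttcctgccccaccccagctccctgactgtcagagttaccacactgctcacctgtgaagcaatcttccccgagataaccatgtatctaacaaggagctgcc

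Ltf (chr9:111019042-111019270, plus strand): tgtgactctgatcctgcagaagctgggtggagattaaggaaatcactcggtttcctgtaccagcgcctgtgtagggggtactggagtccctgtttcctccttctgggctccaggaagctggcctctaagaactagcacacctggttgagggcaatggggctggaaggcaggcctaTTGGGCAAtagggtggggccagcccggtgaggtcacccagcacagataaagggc

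Camp (chr9:109849618-109849706, minus strand): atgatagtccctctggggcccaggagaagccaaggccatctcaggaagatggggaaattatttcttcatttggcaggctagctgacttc

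Ngp (chr9:110419558-110419746, plus strand): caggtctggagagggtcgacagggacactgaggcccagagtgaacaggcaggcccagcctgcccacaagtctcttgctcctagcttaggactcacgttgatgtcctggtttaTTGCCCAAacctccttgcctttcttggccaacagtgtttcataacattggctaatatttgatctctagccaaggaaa

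Over the 250 bases before the RefSeq start, TTGCNNAA was found in 5 of the 10 genes (S100a9, Retnlg, Lcn2, Ltf and Ngp) and in 9.6% of 27025 mouse promoters. GAGGAA, a core of the site of PU.1, a myeloid factor encoded by Spi1, was also found in 5 of the 10 (S100a8, Lcn2, Ltf, Elane and Mpo) and in 23.1% of the promoters. TTCNNNGAA, the palindrome bound by STAT factors, occurred in 0 of the 10 and in 7.2% of the promoters, and TATAAA in 2 of the 10 (S100a8 and Padi4) and in 3504 of the promoters. Matches of different motifs did not overlap within any of the 10 genes, and a match describes letters and not binding.

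In the sorted cells 9 of the 10 genes had a lower mean in the WGP libraries, but the difference passed the test for Mpo and Elane only. In edgeR 2 of the 10 were called lower and 0 higher, and 6 had an unadjusted p below 0.05, all of them lower, against 13.1% of all genes tested that were lower at that p. Both DESeq2 and limma-voom also called 0 of the 10 higher. Over all genes tested 4.96% were called lower and 4.53% higher. The groups overlapped for 9 of the 10 genes. All WGP libraries lay below all PBS libraries for Mpo, as for 16.0% of all genes tested, and all lay above for 0 of the 10, as for 16.0% of all genes. PBS replicate 1 was the highest of the 6 libraries for 9 of the 10 genes, which was so for 22.3% of all genes tested. Together the 10 genes took 0.668%, 0.288% and 0.147% of the counts of PBS replicates 1, 2 and 3, and 0.152%, 0.210% and 0.181% of those of the WGP libraries. In bulk RNA, fewer cells of a type and less RNA per cell cannot be told apart, and this holds for each value here.

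**Figure D1:**
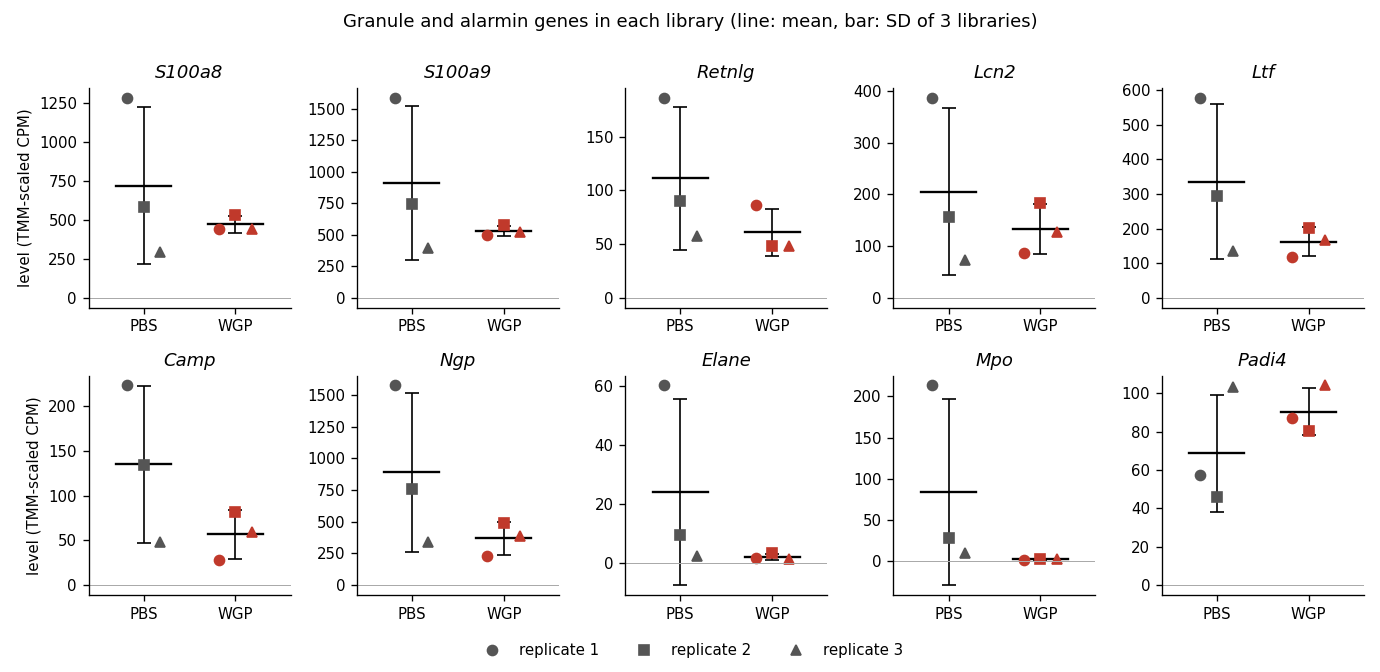
Level of each of the 10 genes (TMM-scaled CPM, vertical axis from 0 upwards, one scale per gene) in the PBS and WGP libraries, with the replicate shown by the marker, the mean as a line and the SD of 3 libraries as a bar. PBS replicate 1 lies above the other 5 libraries for every gene except Padi4, and the SD of the WGP libraries is smaller than that of the PBS libraries for all 10 genes.

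S100a8 (ENSMUSG00000056054, chromosome 3, 90668978 to 90670035, build GRCm38), the smaller subunit of calprotectin, was at 1281, 583 and 296 CPM in PBS replicates 1 to 3 and at 438, 531 and 440 CPM in the WGP libraries. The WGP values all fell inside the PBS range, with PBS replicate 1 far above and PBS replicate 3 below all of them. The log2 fold change was -0.62 (SE 0.41, edgeR adjusted p = 0.382). Without PBS replicate 1 it turned to 0.09 (SE 0.25, edgeR adjusted p = 0.865).

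S100a9 (ENSMUSG00000056071, chromosome 3, 90692632 to 90695721), the larger subunit, was at 1583, 742 and 394 CPM in the PBS libraries and at 499, 575 and 518 CPM in the WGP libraries. The libraries stood in the same order as for S100a8. Its log2 fold change of -0.77 (SE 0.39, edgeR adjusted p = 0.249) shrank to -0.10 without PBS replicate 1. The pair's own ratio was steadier than either level. S100a9 had 1.24, 1.27 and 1.33 counts per count of S100a8 in the PBS libraries and 1.14, 1.08 and 1.18 in the WGP libraries. Every WGP ratio was below every PBS ratio, a difference of -0.18 on the log2 scale. The exact two-sided permutation test gave p = 0.1, the smallest that this test allows with 3 libraries against 3.

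Retnlg (ENSMUSG00000022651, chromosome 16, 48872621 to 48874496) encodes resistin-like gamma, a secreted protein of neutrophils and the marrow. It was at 186, 89.8 and 57.6 CPM in the PBS libraries and at 86.0, 48.4 and 48.0 CPM in the WGP libraries. WGP replicate 1 lay near PBS replicate 2, and the other two WGP libraries lay below all PBS libraries. On the log2 scale the fold change was -0.87 (SE 0.39, edgeR adjusted p = 0.188) and -0.28 without PBS replicate 1. Its ratio to S100a8 ranged from 0.145 to 0.194 in PBS and from 0.0911 to 0.196 in WGP libraries, so the groups overlapped.

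The 4 specific granule genes had log2 fold changes between -0.63 and -1.28, and adjusted p values between 0.104 and 0.449 (edgeR) that did not pass the threshold. Lcn2 (ENSMUSG00000026822, chromosome 2, 32384633 to 32388252) encodes lipocalin 2, which binds bacterial siderophores and so withholds iron. It was at 386, 155 and 73.9 CPM in the PBS libraries and at 86.2, 184 and 128 CPM in the WGP libraries. Here WGP replicate 2 exceeded both PBS replicate 2 and PBS replicate 3. Its log2 fold change was -0.63 (SE 0.49, edgeR adjusted p = 0.449) and turned to 0.21 without PBS replicate 1.

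Ltf (ENSMUSG00000032496, chromosome 9, 111019271 to 111042767), which encodes the iron-binding lactoferrin, was at 577, 293 and 136 CPM in the PBS libraries and at 117, 203 and 167 CPM in the WGP libraries. PBS replicate 3 lay among the WGP libraries and the other PBS libraries above them. The log2 fold change was -1.05 (SE 0.42, edgeR adjusted p = 0.140), and -0.40 without PBS replicate 1.

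Camp (ENSMUSG00000038357, chromosome 9, 109847379 to 109849617) encodes the cathelicidin antimicrobial peptide. Its level was 223, 134 and 47.6 CPM in the PBS libraries and 28.0, 82.1 and 59.7 CPM in the WGP libraries. WGP replicate 1 was the lowest of all, and PBS replicate 3 lay below the other two WGP libraries. On the log2 scale the fold change was -1.25 (SE 0.50, edgeR adjusted p = 0.138), and -0.69 without PBS replicate 1.

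Ngp (ENSMUSG00000032484, chromosome 9, 110419747 to 110423012), whose product is a cathelicidin-related protein of the same granules, was at 1577, 760 and 338 CPM in the PBS libraries and at 229, 489 and 386 CPM in the WGP libraries. The libraries stood in the same order as for Ltf. Its log2 fold change was -1.28 (SE 0.47, edgeR adjusted p = 0.104), and -0.58 without PBS replicate 1. When the counts of each library were divided by its most frequent low count the adjusted p was 0.0329 (edgeR) at a log2 fold change of -1.26.

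The azurophil granule genes were the only called ones among the 10. Mpo (ENSMUSG00000009350, chromosome 11, 87793581 to 87804413) encodes myeloperoxidase, the enzyme that makes hypochlorous acid. It had 8200, 1087 and 370 counts in the PBS libraries and 32, 83 and 81 counts in the WGP libraries, or 213, 27.9 and 9.04 CPM against 0.868, 2.00 and 1.98 CPM. Every WGP library lay below every PBS library, and PBS replicate 1 held most of the signal. Mpo fell by 5.68 on the log2 scale (SE 1.06, edgeR adjusted p = 0.00491). Without PBS replicate 1 the log2 fold change was -3.51 and Mpo was still called, as it was in 20 of 21 alternatives. In limma-voom it was not called (log2 fold change -4.57, adjusted p = 0.404).

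Elane (ENSMUSG00000020125, chromosome 10, 79886247 to 79888215) encodes neutrophil elastase, a serine protease. It had 2315, 375 and 108 counts in the PBS libraries and 63, 142 and 57 counts in the WGP libraries, or 60.2, 9.63 and 2.64 CPM against 1.71, 3.42 and 1.39 CPM. WGP replicate 2 was above PBS replicate 3, so the groups overlapped. Elane fell by 3.47 on the log2 scale (SE 0.96, edgeR adjusted p = 0.0358). The call did not hold without PBS replicate 1 (log2 fold change -1.50, adjusted p = 0.297), without WGP replicate 1 (-3.32, adjusted p = 0.122) or without WGP replicate 3 (-3.23, adjusted p = 0.123), all from edgeR. It also did not hold in limma-voom (log2 fold change -2.45, adjusted p = 0.424), with filterByExpr (-3.47, adjusted p = 0.055) or under the replicate block (-2.38, adjusted p = 0.0955).

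The counts of the azurophil genes in WGP libraries rest on little material. The most frequent count between 5 and 200 in a library was 17 to 43, lowest in WGP replicate 1 and highest in PBS replicate 1. In units of that count Mpo stood at 191, 36.2 and 14.2 in the PBS libraries and at 1.9, 2.5 and 2.7 in the WGP libraries. Elane stood at 53.8, 12.5 and 4.2 units in PBS and at 3.7, 4.3 and 1.9 units in WGP libraries. S100a8, by contrast, was never below 466.7 units. In these units Retnlg was highest in WGP replicate 1, at 186.4 against 166.2 in PBS replicate 1. How many reads came from 1 molecule was not tested.

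Padi4 (ENSMUSG00000025330, chromosome 4, 140745865 to 140774236) encodes peptidylarginine deiminase 4, which citrullinates histones when neutrophils release their chromatin. It was at 57.2, 45.8 and 103 CPM in the PBS libraries and at 87.0, 80.3 and 104 CPM in the WGP libraries. Unlike the other 9 genes it was highest among the PBS libraries in replicate 3. The log2 fold change was 0.39 (SE 0.27, edgeR adjusted p = 0.397), and 0.28 without PBS replicate 1. No alternative called it, though without PBS replicate 3 its adjusted p was 0.0244 (edgeR) at a log2 fold change of 0.81.

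**Figure D2:**
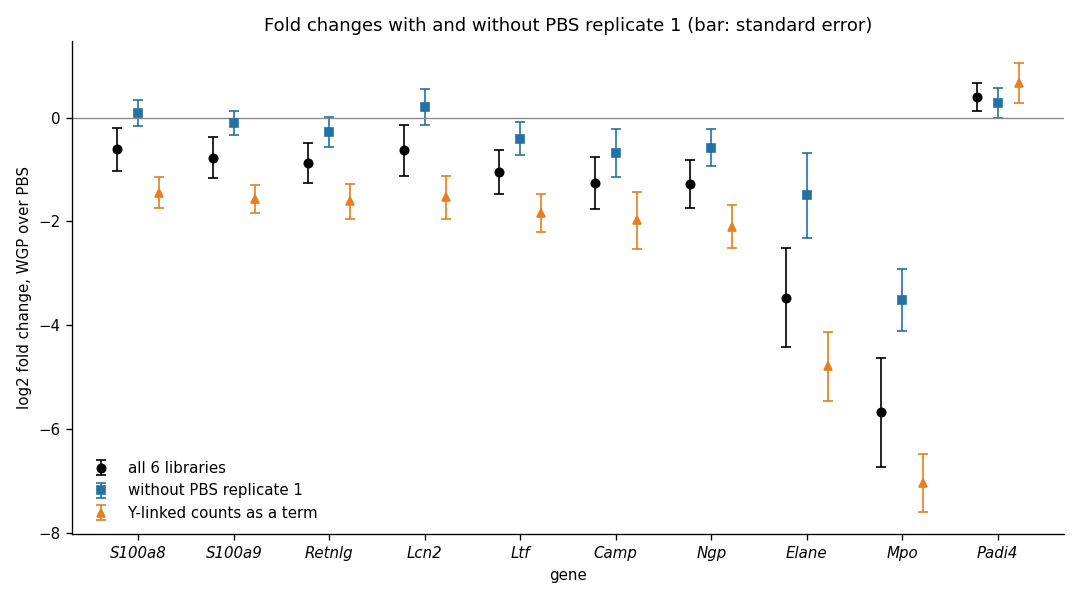
Log2 fold change of WGP over PBS (vertical axis, error bars of 1 standard error) for each of the 10 genes in 3 fits: all 6 libraries (black circles), without PBS replicate 1 (blue squares) and with a term for Y-linked counts (orange triangles). Leaving out PBS replicate 1 moves 9 genes upwards, S100a8 to 0.09 and Lcn2 to 0.21, while the Y-linked term moves the same genes downwards.

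The 2 fits that treat PBS replicate 1 differently gave opposite pictures. Without it 1 of the 10 genes was called lower (Mpo), against 5.06% of all genes tested in that fit, and PBS replicates 2 and 3, both with Y-linked RNA, were set against WGP libraries without it. With a term for Y-linked RNA in the model 9 of the 10 were called lower, against 4.69% of all genes tested. In that fit the treatment is estimated from PBS replicate 1 against the WGP libraries, and S100a8 had a log2 fold change of -1.45 and Ngp of -2.10 (edgeR adjusted p = 0.0115 and 0.0104). Without PBS replicate 3, the lowest PBS library for 9 of the genes, 6 were called lower (S100a9, Ltf, Camp, Ngp, Elane and Mpo), against 4.72% of all genes tested. Mpo was called lower in each of these fits, but the fit without PBS replicate 1 sets PBS libraries with Y-linked RNA against WGP libraries without it, and the fit with the Y-linked term rests on PBS replicate 1 as the only PBS library without that RNA. For all 10 genes Y-linked RNA, PBS replicate 1 and the treatment cannot be told apart with these libraries.

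PBS replicate 1 exceeded the mean of PBS replicates 2 and 3 by a similar factor for the alarmins and the specific granule genes, from 2.45 times for Camp to 3.37 times for Lcn2. For Elane the factor was 9.82 and for Mpo 11.6. PBS replicate 2 was above PBS replicate 3 for the same 9 genes, from 1.56 times for Retnlg to 3.65 times for Elane. Against the mean of PBS replicates 2 and 3 alone, the WGP mean was 1.07 times as high for S100a8, 0.935 times for S100a9, 0.622 times for Camp and 0.0875 times for Mpo.

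Ratios within a library do not depend on how the libraries are scaled. Of the 9 ratios to S100a8, 6 were lower in every WGP library than in every PBS library: those of S100a9, Ltf, Camp, Ngp, Elane and Mpo. This was so for 4.46% of all genes tested, while 16.0% were lower in every WGP library by level. S100a8 ran from 12133 to 49230 counts among the PBS libraries, which spreads the PBS ratios of any gene that does not follow it. The 4.46% is therefore no neutral background for genes that follow S100a8, and no conclusion is drawn from it. The ratios other than that of S100a9 were looked at after the levels had been seen and were not tested.

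Ngp had 1.23, 1.30 and 1.14 counts per count of S100a8 in the PBS libraries and 0.522, 0.921 and 0.877 in the WGP libraries. For Ltf the ratios were 0.451, 0.503 and 0.458 against 0.267, 0.382 and 0.379, and for Camp 0.174, 0.231 and 0.161 against 0.0639, 0.154 and 0.136. PBS replicate 1, so far from the other PBS libraries in level, was within their range in the ratio of Camp and of Ngp. The mean difference was -0.47 for Ltf, -0.71 for Ngp, -0.76 for Camp, -2.15 for Elane and -4.27 for Mpo on the log2 scale.

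The ratios of Lcn2 and Padi4 overlapped between the groups. Lcn2 had 0.302, 0.266 and 0.249 counts per count of S100a8 in PBS and 0.197, 0.346 and 0.291 in WGP libraries. Among genes of one granule, Ngp had 5.65 to 7.10 counts per count of Camp in PBS and 5.96 to 8.17 in WGP libraries, which overlapped. Mpo had 3.54, 2.90 and 3.43 counts per count of Elane in the PBS libraries and 0.508, 0.585 and 1.42 in the WGP libraries, with no overlap.

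**Figure D3:**
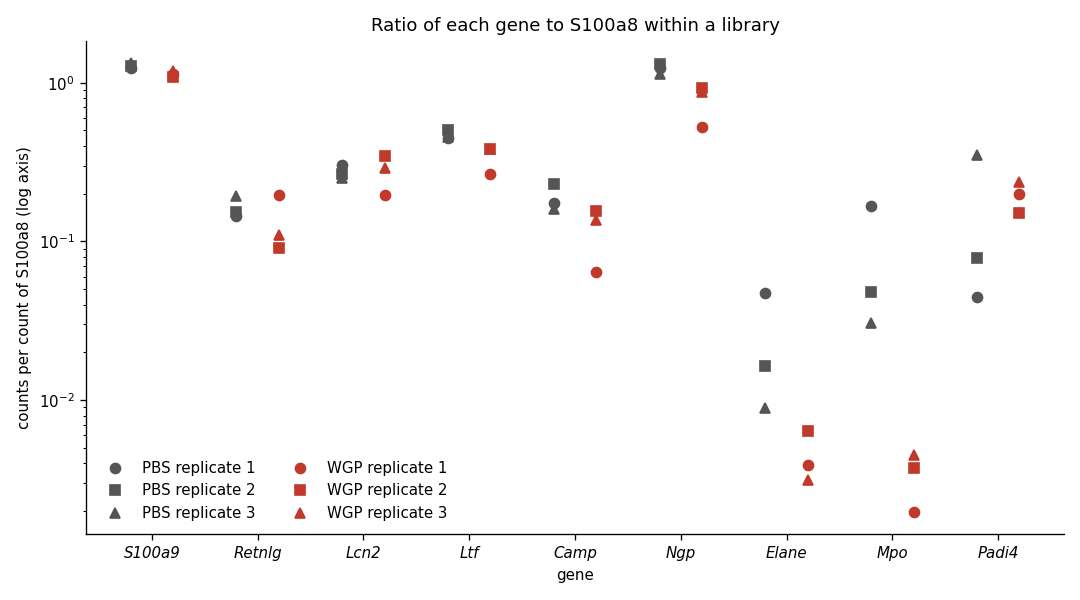
Counts of each gene per count of S100a8 in the same library (log axis) for the 3 PBS libraries (grey) and the 3 WGP libraries (red), with the replicate shown by the marker. The red points lie below all grey points for S100a9, Ltf, Camp, Ngp, Elane and Mpo and overlap with them for Retnlg, Lcn2 and Padi4.

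Set per kilobase of exon, the mean levels kept the same leading order in both groups: S100a9, S100a8, Ngp, Retnlg and Camp. In the PBS libraries these stood at 1736, 1038, 730, 187 and 178 CPM per kb, and Elane and Mpo at 24.6 and 24.4 CPM per kb were above Padi4 at 14.2. In PBS libraries the gap between neighbours in the order exceeded the larger of their SDs for 1 pair, Ngp and Retnlg. In the WGP libraries S100a9 was at 1017, S100a8 at 677 and Ngp at 301 CPM per kb, each apart from the next by more than the larger SD. Padi4, at 18.7 CPM per kb, there stood above Elane at 2.21 and Mpo at 0.472.

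By Pearson's r of log2(CPM + 1) over the 6 libraries, among 11681 genes with a mean of at least 1 CPM, the patterns most like that of S100a8 were those of Hip1r (r = 0.995), Samd3 (0.994), S100a9 (0.988), Top2a (0.985) and Ckap4 (0.983). For Retnlg they were Il5ra (0.993), Btrc (0.990), Sept6 (0.988), Zfp831 (0.988) and Zfp512b (0.988). These values describe 6 libraries of which 1 stood apart, and no test was made of them.

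The other neutrophil genes were grouped by where their products are stored. With all 6 libraries 14 of 16 azurophil and specific granule genes had log2 fold changes below 0. Of the 13 gelatinase granule and surface genes, 10 were above 0. Without PBS replicate 1 the azurophil and specific granule genes were evenly split, with 8 of 16 below 0. Of the gelatinase granule and surface genes, 10 of 13 were above 0 as before. These counts include the members of the 10. The list of 34 genes beside the 10 had 33 tested, of which 6 were called higher and 1 lower. Over all genes tested 4.53% were called higher and 4.96% lower, and these shares stand beside the counts of each list below. Their median log2 fold change was 0.25, against -0.96 for the 10 and -0.05 over all genes tested. Without PBS replicate 1, 9 were called higher, against 678 of the 14193 genes tested in that fit. The medians there were 0.63 for these genes, -0.34 for the 10 and -0.01 over all genes tested.

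Among azurophil granule genes beside Mpo and Elane, Ctsg, which encodes cathepsin G, was at 21.8, 0 and 0.586 CPM in the PBS libraries and at 0, 0.989 and 0 CPM in the WGP libraries (edgeR adjusted p = 0.259). Prtn3, the gene of proteinase 3, was at 60.3, 5.42 and 1.42 CPM in PBS and at 8.98, 13.5 and 6.08 CPM in WGP libraries. All 3 WGP libraries exceeded PBS replicates 2 and 3 in Prtn3, which was not so for Mpo in any WGP library. Bpi had 0 counts in all 6 libraries. Of the 5 azurophil genes tested 2 were called lower and all 5 had a log2 fold change below 0. Without PBS replicate 1 only Mpo was called and 3 were below 0, with Prtn3 at 1.47 and Ctsg at 0.17 on the log2 scale.

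Of the 11 specific granule genes 9 had a log2 fold change below 0, and the only call was Chil1, which rose. Of the same 11, 5 were below 0 without PBS replicate 1, with Lcn2 at 0.21, Olfm4 at 0.03, Cd177 at 0.01 and Itgb2l at 0.28 on the log2 scale, and Chil1 was again the only call. Chil1, which encodes a chitinase-like protein without enzyme activity, was at 49.6, 18.3 and 12.3 CPM in the PBS libraries and at 76.1, 109 and 70.0 CPM in the WGP libraries (log2 fold change 1.67, edgeR adjusted p = 0.0293). That call failed in 8 of its 21 alternatives. Fcnb, the gene of the lectin ficolin B, was at 29.0, 9.19 and 2.81 CPM against 2.71, 4.05 and 3.03 CPM, a log2 fold change of -2.06 (edgeR adjusted p = 0.0883). Without PBS replicate 1 it was -0.88 (edgeR adjusted p = 0.482). Fcnb was called in DESeq2, with the Y-linked term and without PBS replicate 3.

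The gelatinase granule and surface list had 10 of 13 genes with a log2 fold change above 0, 5 of them called higher, and 1 gene was called lower. Over all genes tested 4.53% were called higher and 4.96% lower. With PBS replicate 1 left out, 6 were called higher and 1 lower, the additional one being Cxcr1, a related chemokine receptor gene, which had 0 counts in PBS replicates 2 and 3. The formyl peptide receptors, which guide neutrophils and monocytes to bacterial peptides, rose most: Fpr2 went from 20.9 ± 3.24 to 302.5 ± 35.1 CPM (SD, n = 3) and Fpr1 from 8.94 ± 1.83 to 108 ± 23.8 CPM. Their log2 fold changes were 3.85 and 3.60 (edgeR). Cxcr2, the receptor for neutrophil-attracting chemokines, was at 53.8, 46.0 and 28.2 CPM in PBS and at 106, 107 and 102 CPM in WGP libraries (log2 fold change 1.30, edgeR adjusted p = 0.0032). Hp and Mmp25 were called higher too and are named after their values were seen. With the Y-linked term the calls of Cxcr2 and Mmp25 were lost. Mmp9, which encodes gelatinase B, fell from 584 ± 101.5 to 219 ± 69.2 CPM (SD, n = 3), a log2 fold change of -1.41 (edgeR adjusted p = 0.00249).

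**Figure D4:**
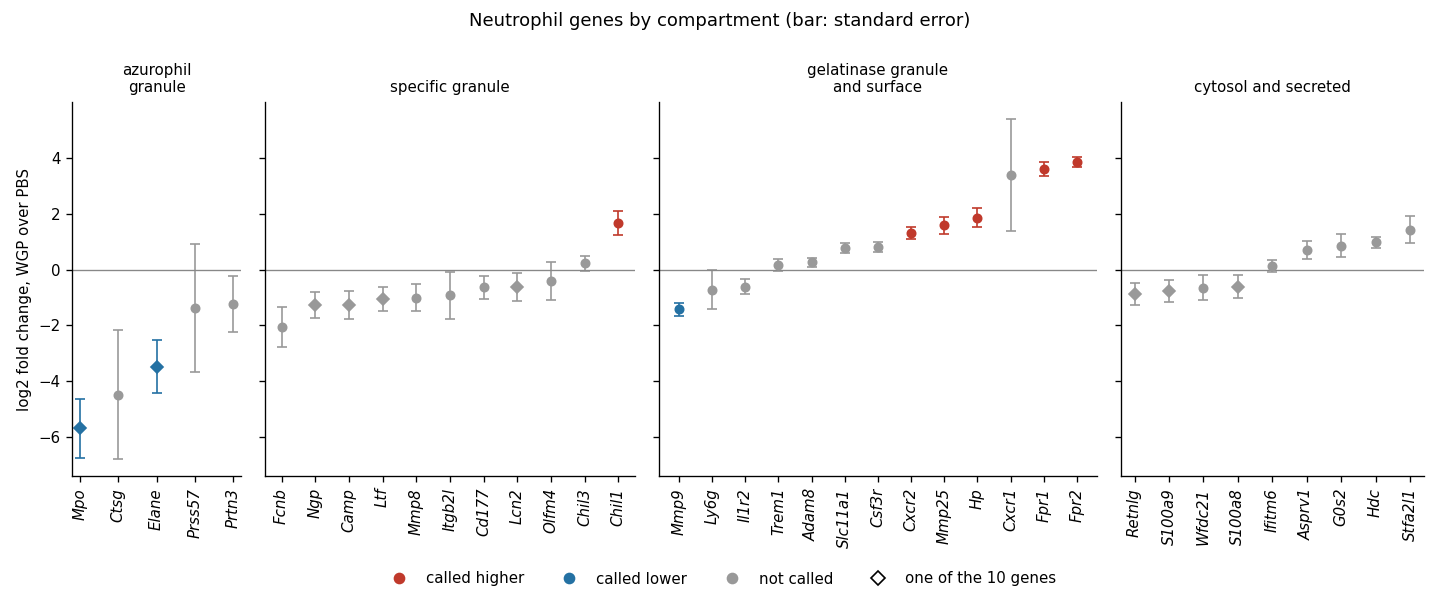
Log2 fold change of WGP over PBS (vertical axis, error bars of 1 standard error) for neutrophil genes grouped by the compartment of their product. Red genes were called higher, blue genes lower and grey genes were not called, diamonds mark members of the 10, and Stfa1, Stfa2, Stfa3 and BC100530, with few counts, are left out. All 6 libraries are used: the 5 azurophil genes and 9 of 11 specific granule genes lie below 0. Of the gelatinase granule and surface genes, 10 of 13 lie above 0. Without PBS replicate 1 (not drawn) 3 of 5 azurophil and 5 of 11 specific granule genes lay below 0.

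The cytosolic and secreted genes had 0 calls in 13 tested with all 6 libraries in edgeR, and also in DESeq2 and limma-voom, with 3 at an unadjusted p below 0.05 (Hdc, Stfa2l1 and Retnlg). Hdc, which encodes the enzyme that makes histamine, was at 181, 163 and 134 CPM in PBS and at 397, 248 and 298 CPM in WGP libraries. Its adjusted p was 0.00741 (edgeR) at a log2 fold change of 0.98, just under the threshold on the fold change. Of the 13, 9 had a log2 fold change above 0 without PBS replicate 1 and 2 were called higher, Hdc (1.08, edgeR adjusted p = 0.00578) and Asprv1, the gene of an aspartic protease (1.11, edgeR adjusted p = 0.0302). Hdc was also called without WGP replicate 2, without WGP replicate 3 and with counts divided by the most frequent low count. Stfa2l1, of the stefin A cysteine protease inhibitors, whose near-identical copies can share reads, had a log2 fold change of 1.42 (edgeR adjusted p = 0.0841), and G0s2 of 0.86 (edgeR adjusted p = 0.216).

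Transcription factors that drive granule genes gave 1 call among 6. Cebpb, the factor of emergency granulopoiesis, rose from 185 ± 31.0 to 504.5 ± 45.4 CPM (SD, n = 3), a log2 fold change of 1.45 (edgeR adjusted p = 0.000273). Spi1 was at 382 ± 2.57 and 543 ± 15.7 CPM, with an adjusted p of 0.0256 (edgeR) but a log2 fold change of 0.51, below the threshold. Cebpd and Gfi1 had log2 fold changes of -0.18 and 0.73 (edgeR adjusted p = 0.552 and 0.791).

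Relatives of the 10 within their gene families gave few calls. Of the 12 S100 genes tested 1 was called, S100a11, at 159, 82.0 and 68.1 CPM in PBS and at 255, 205 and 213 CPM in WGP libraries (log2 fold change 1.12, edgeR adjusted p = 0.0227), while S100a4 and S100a10 had log2 fold changes of 0.39 and -0.31 (edgeR adjusted p = 0.203 and 0.232). Retnla, the resistin-like alpha gene of alternatively activated macrophages, was at 543, 962 and 1533 CPM in the PBS libraries, the reverse of the order of Retnlg, and at 112, 112 and 60.6 CPM in the WGP libraries. It fell by 3.42 on the log2 scale (edgeR adjusted p = 0.000234), and Retn, at a mean of 1.10 CPM in PBS, had 0 counts in the WGP libraries. The 4 peptidylarginine deiminase genes tested had adjusted p values of 0.216 or more (edgeR), among them Padi2 with a log2 fold change of -0.32. Padi3 and Padi1 had means of 2.28 and 0.282 CPM in the PBS libraries and of 0.0905 and 0 CPM in the WGP libraries.

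Genes for receptors and partners of the secreted proteins gave 3 calls, all lower, in 9 tested, against 4.96% of all genes called lower. Of the 9, 5 had a log2 fold change above 0 and 4 below. Cd36, a scavenger receptor that binds the S100A8 and S100A9 complex, fell from 825 ± 303 to 157 ± 76.3 CPM (SD, n = 3). Slc22a17, a receptor of lipocalin 2, fell from 12.4 ± 2.21 to 1.94 ± 1.03 CPM, and Cd33, a sialic acid-binding lectin, from 337 ± 115.5 to 163 ± 14.8 CPM. Their adjusted p values from edgeR were 0.00151, 0.00739 and 0.0152. P2rx7, an ATP-gated channel, had an adjusted p of 0.0275 (edgeR) at a log2 fold change of -0.81, under the threshold on the fold change. Tlr4 went the other way and was also under that threshold (log2 fold change 0.70, edgeR adjusted p = 0.0299), with every WGP library above every PBS library.

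A list of protease inhibitors, not all of them inhibitors of granule proteases, gave 3 calls higher and 1 lower in 8 tested. Over all genes tested 4.53% were called higher and 4.96% lower. Slpi, the secretory leukocyte protease inhibitor that blocks elastase, rose from 33.3 ± 12.97 to 129.5 ± 3.53 CPM (SD, n = 3), a log2 fold change of 1.96 (edgeR adjusted p = 0.000726). Serpina3g rose by 2.99 and Cstb, which encodes the cysteine protease inhibitor cystatin B, by 1.32 on the log2 scale. Serpinb6a, an inhibitor of cathepsin G, fell by 1.96 (edgeR adjusted p = 0.00518). Without PBS replicate 1 there were 3 calls higher and 2 lower, with Cst3 added (log2 fold change -1.06, edgeR adjusted p = 0.000276).

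Markers of the cells the gate can hold were read beside these genes, and their part in the results was not tested. The 10 neutrophil markers, led by Csf3r, Mmp9 and Hdc, summed to between 1462 and 1649 CPM in PBS and between 1354 and 1913 CPM in WGP libraries. These sums join opposite changes, with 5 log2 fold changes above 0 and 5 below. Mmp9 was lower in every WGP library (group means 584 and 219 CPM). Csf3r and Hdc were higher in every WGP library, Hdc with group means of 159.5 and 314 CPM. Cxcr2 was called higher and Mmp9 lower among them, and without PBS replicate 1 the calls were 3 higher (Cxcr2, Hdc and Asprv1) and 1 lower. The defining surface marker Ly6g was low in each library, at 7.36, 5.42 and 2.25 CPM in PBS and 1.93, 3.01 and 4.15 CPM in WGP libraries, while Csf3r, the receptor of granulocyte colony-stimulating factor, was at 451 ± 19.9 and 791 ± 152 CPM (SD, n = 3). The 7 progenitor markers, led by Flt3, Kit and Prtn3, summed to between 57.9 and 156 CPM in PBS and between 78.2 and 99.3 CPM in WGP libraries, with PBS replicate 1 highest. Of these Kit, the receptor of stem cell factor, was called higher, from 11.96 ± 4.23 to 39.6 ± 7.25 CPM (SD, n = 3; log2 fold change 1.72, edgeR adjusted p = 0.00316), and none was called lower. Prtn3 and Ctsg are also azurophil genes.

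Of the 7 Ly6C-high monocyte markers, led by F13a1, Ccr2 and Plac8, 5 were called higher and 1 lower, and their sums were 2271 to 4114 CPM in PBS and 3473 to 3974 CPM in WGP libraries. Of the 10 resident macrophage markers, led by C1qa, C1qc and C1qb, 7 were called lower, with sums of 9084 to 18900 CPM in PBS and 3515 to 5684 CPM in WGP libraries. PBS replicate 1 was the lowest PBS library in both sums. In the monocyte sum this came from F13a1, the marker called lower, at 1335, 2728 and 3474 CPM in the PBS libraries, and from Ccr2 at 224, 369 and 407 CPM, whereas Ly6c2, Plac8, Chil3 and Vcan were highest among the PBS libraries in replicate 1. The 4 B cell markers, led by Cd79a, Ms4a1 and Cd79b, were all called lower. So were the 8 acinar markers, led by Pnlip, Ctrb1 and Cela2a, with sums of 1304 to 4850 CPM in PBS, highest in replicate 2, and 345 to 550 CPM in WGP libraries.

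The 8 eosinophil markers, led by Ear2, Alox15 and Ccr3, summed to between 63.5 and 78.1 CPM in PBS and between 50.5 and 169 CPM in WGP libraries. The mast cell and basophil markers, led by Mcpt8, Cma1 and Gata2, summed to 15.6 CPM in PBS replicate 1 and to between 0 and 8.86 CPM elsewhere, with Cpa3 at 0 in all libraries. Platelet markers, led by Pf4, Itga2b and Ppbp, summed to between 263 and 454 CPM in PBS and between 11.3 and 16.9 CPM in WGP libraries, with Gp9 and Gp1bb at 0. Pf4, the only platelet marker called, made up nearly all of these sums, at 261, 380.1 and 450.4 CPM in PBS and 14.1, 9.72 and 15.6 CPM in WGP libraries, while Itga2b was between 1.08 and 1.33 CPM in PBS and between 1.25 and 1.59 CPM in WGP libraries. T and NK cell markers, led by Gzma, Cd4 and Ncr1, summed to between 61.8 and 143.5 CPM in PBS and between 34.7 and 59.8 CPM in WGP libraries. Of these 7 markers, 3 had a log2 fold change above 0 and 4 below. Gzma was called lower (log2 fold change -1.81, edgeR adjusted p = 0.0188). Cd8a was called higher, with 0 counts in the PBS libraries and 1.66, 2.94 and 1.49 CPM in the WGP libraries (edgeR adjusted p = 0.0393).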

How the data were processed

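Per the labels and the study's methods, poly-A libraries of sorted pancreatic CD45+CD11b+ cells were from 10 ng of RNA and read as single 75-base reads. The authors aligned the reads to mm10 with STAR (2.6) and deposited raw counts per Ensembl gene from HTSeq (0.10.0). RLE scaling and the filter on low counts of the study are not applied in the table. The strand setting is not given in the sources used here, so overlapping and antisense genes cannot be told apart.

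Genes were tested in R 4.3.3 with edgeR 4.0.16 (quasi-likelihood, TMM) if protein-coding and if their RLE-scaled counts over the 6 libraries came to 10 or more. Standard errors are the log2 fold change over the signed root of F. The fit was tested on simulated data. Alternatives covered scaling, filters, limma 3.58.1, DESeq2 1.42.0, thinning, a replicate block, a Y-linked term and each library left out.

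The members, lists and tests were chosen with earlier results of these data known. Named were the 10 genes, the 4 genes with the smallest p of each other list, the 3 highest of each marker list and markers at 0, and the 5 genes nearest in pattern to S100a8 and Retnlg. Outside this rule, Hp, Mmp25, Cxcr1, Asprv1, Olfm4, Cd177, Itgb2l, Ly6g, Ly6c2, Chil3, Vcan, Tlr4, Cst3 and Cd8a were named after their values were seen. Pax5, Bpi, Stfa1, Stfa2, Stfa3 and BC100530 were named to say what a sum, list or figure holds. Of the lists, Amy2b was not matched. In addition, 2 genes were left out of the lists and are not reported here. Counts carry no molecular identifiers.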

Additional observations from a re-analysis of the deposited data

How the results depend on the processing

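Over 21 alternatives the number of the 10 genes called higher stayed at 0, and the number called lower, 2 with all libraries, was 0 in limma-voom, 1 with filterByExpr, 9 with the Y-linked term and 1 to 6 with each library left out, 6 without PBS replicate 3. The replicate numbers did not pair the libraries (correlations of same-numbered deviations 0.05, -0.08 and 0.07), and the replicate block gave 1 called lower (Mpo), with no other change of a count by over 1.5 times. The wider neutrophil genes called higher, 6 with all libraries, were 2 at a log2 change of 2 or more in size and 5 to 9 with each library left out, 9 without PBS replicate 1. Those called lower, 1 with all libraries, were 2 in DESeq2, 5 with the Y-linked term, 0 at that larger size and 1 to 2 with each library left out. Among the log2 fold changes of the 10, those of S100a8 and Lcn2 changed sign, both without PBS replicate 1. With each library left out they ranged from -0.99 to 0.093 for S100a8 and from -1.03 to 0.21 for Lcn2. The log2 ratio of S100a9 to S100a8 ranged from -0.20 to -0.14 over its 8 alternatives. The low counts of Mpo and Elane in the WGP libraries limit what depth can show for these genes.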
